A study of Mus musculus with 6 samples.

Results

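The genes described here are 10 transcription factors of fat cell formation and fat synthesis, namely Pparg, Cebpa, Cebpb, Cebpd, Srebf1, Srebf2, Mlxipl, Rxra, Ebf1 and Klf15, out of 18194 genes named on the array. They were chosen by symbol, taking every probe set whose platform annotation names only that gene, which gave 19 of 45101 probe sets. Of these 19, 17 were bright enough to test, among 27022 tested probe sets. Lung RNA of 6 wild type mice, 3 fed a control diet and 3 fed a high fat diet, was hybridised to 6 Affymetrix arrays. The question is which lung transcripts change with the diet. Strain, age, sex, diet makeup and diet duration were not given in the sources used here.

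PPARG is a nuclear receptor that is activated by fatty acids and their derivatives, pairs with a retinoid X receptor such as RXRA on DNA, and is required for fat cell formation. In the classical cascade CEBPB and CEBPD, which hormones and glucocorticoids switch on early, act before PPARG and CEBPA, and PPARG and CEBPA then maintain each other and the fat cell's genes. SREBP1 (from Srebf1) and ChREBP (from Mlxipl) drive fatty acid synthesis in response to insulin and to glucose, SREBP2 (from Srebf2) drives cholesterol synthesis, KLF15 is a glucocorticoid-inducible factor of metabolic tissues, and EBF1 serves both the fat cell and the B lymphocyte lineages. In lung, PPARG is a known identity factor of alveolar macrophages, and CEBPA and SREBP1 are known for their part in surfactant lipid production by alveolar type II cells.

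Short promoter stretches of 5 of the genes are shown because each carries a sterol regulatory element, C/EBP or E-box motif, read by factors of the same group. CCAAT boxes are marked as well and are a separate motif from the C/EBP pattern. They come from RefSeq (GRCm38.p6), run 5′ to 3′ on the gene's strand, end at or before the base upstream of a RefSeq start, and have the motif letters in capitals. In Srebf1 and Srebf2 the capitals mark a sterol regulatory element pattern (TCACNCNA) and a CCAAT box, written ATTGG where it lies on the other strand. In Pparg they mark a CCAAT box and a C/EBP pattern (TTGCNNAA, here on the other strand), and in Klf15 and Mlxipl they mark the E-box CACGTG, the core read by ChREBP and SREBP1. The stretches lie at chr11:60210472-60210536 (minus strand) for Srebf1, chr15:82147089-82147149 (plus) for Srebf2, chr6:115422006-115422065 (plus) for Pparg, chr6:90462341-90462416 (plus) for Klf15 and chr5:135089770-135089820 (plus) for Mlxipl.
Srebf1: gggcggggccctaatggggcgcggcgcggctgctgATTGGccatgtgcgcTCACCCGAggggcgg
Srebf2: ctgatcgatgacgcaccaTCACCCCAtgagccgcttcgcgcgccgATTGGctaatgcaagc
Pparg: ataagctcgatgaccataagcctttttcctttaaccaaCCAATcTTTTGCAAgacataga
Klf15: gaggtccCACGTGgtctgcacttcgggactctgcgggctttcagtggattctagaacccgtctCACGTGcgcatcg
Mlxipl: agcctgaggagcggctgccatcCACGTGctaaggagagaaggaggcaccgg

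Over the 250 bases upstream of each start, RefSeq gave 16 starts for 9 of the 10 genes, and none was matched for Cebpd. The sterol pattern was found at 3 of the 16 starts (Srebf1, Srebf2 and Mlxipl), against 9.1% of 32841 mouse promoters of the same length. The E-box was found at 2 starts (Klf15, where it occurs at 228 and 172 bases before the start, and Mlxipl), against 6.02% of promoters. The CCAAT box was at 7 starts (33.9% of promoters), the GC box GGGCGG at 9 (32.7%), the nuclear receptor motif AGGTCA at 3 starts of Pparg and Rxra (14%), and the C/EBP pattern at 1 start, of Pparg (9.57%). The glucocorticoid response element pattern, searched by its palindrome on both strands, was at 0 of the 16 starts and in 0.387% of promoters. No 2 of the matches marked in capitals overlap. These matches describe the sequence and are not measured binding sites.

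Of the 10 factors, 5 rose in high fat lungs (Cebpa, Srebf1, Klf15, Pparg and Mlxipl) and none fell, by limma at an adjusted p under 0.05 over all 27022 tested probe sets. Each gene is read at its brightest probe set. For comparison, 9.37% of 12689 tested genes were called, 6.27% higher and 3.1% lower. At an unadjusted limma p under 0.05, 8 of the factors were higher and 0 lower, where 16.2% of all tested genes were higher and 9.29% lower. In 7 of the 10 genes every high fat mouse was above every control mouse, which was so for 19.7% of all tested genes, and in none of the 10 was the reverse seen, as it was for 12.1%. The median log2 difference (high fat minus control) of the 10 genes was 0.69, and that of all tested genes was 0.06. Over probe sets, 5 of the 17 tested were called, all higher, where 12.9% of all tested probe sets were called and 4.63% were called higher. Of the 17, 16 had a mean above the filter in both groups, and in 8 of these 16 the groups did not overlap, all higher. Over all tested probe sets this share was 14.6%. When p-values were adjusted over 12689 genes in place of probe sets, 3 of the factors were called (Cebpa, Srebf1 and Klf15), against 4.56% of genes called higher. Left out in turn, each of the 3 control mice lowered the count to 2 (without replicate 1), 0 (without replicate 2) and 1 (without replicate 3), and high fat replicates 1 and 2 each lowered it to 3. Calls over all tested genes fell too, from 1189 to 600, 303 and 270 without control replicates 1, 2 and 3. Without high fat replicates 1 and 2 they were 753 and 596.

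**Figure D1:**
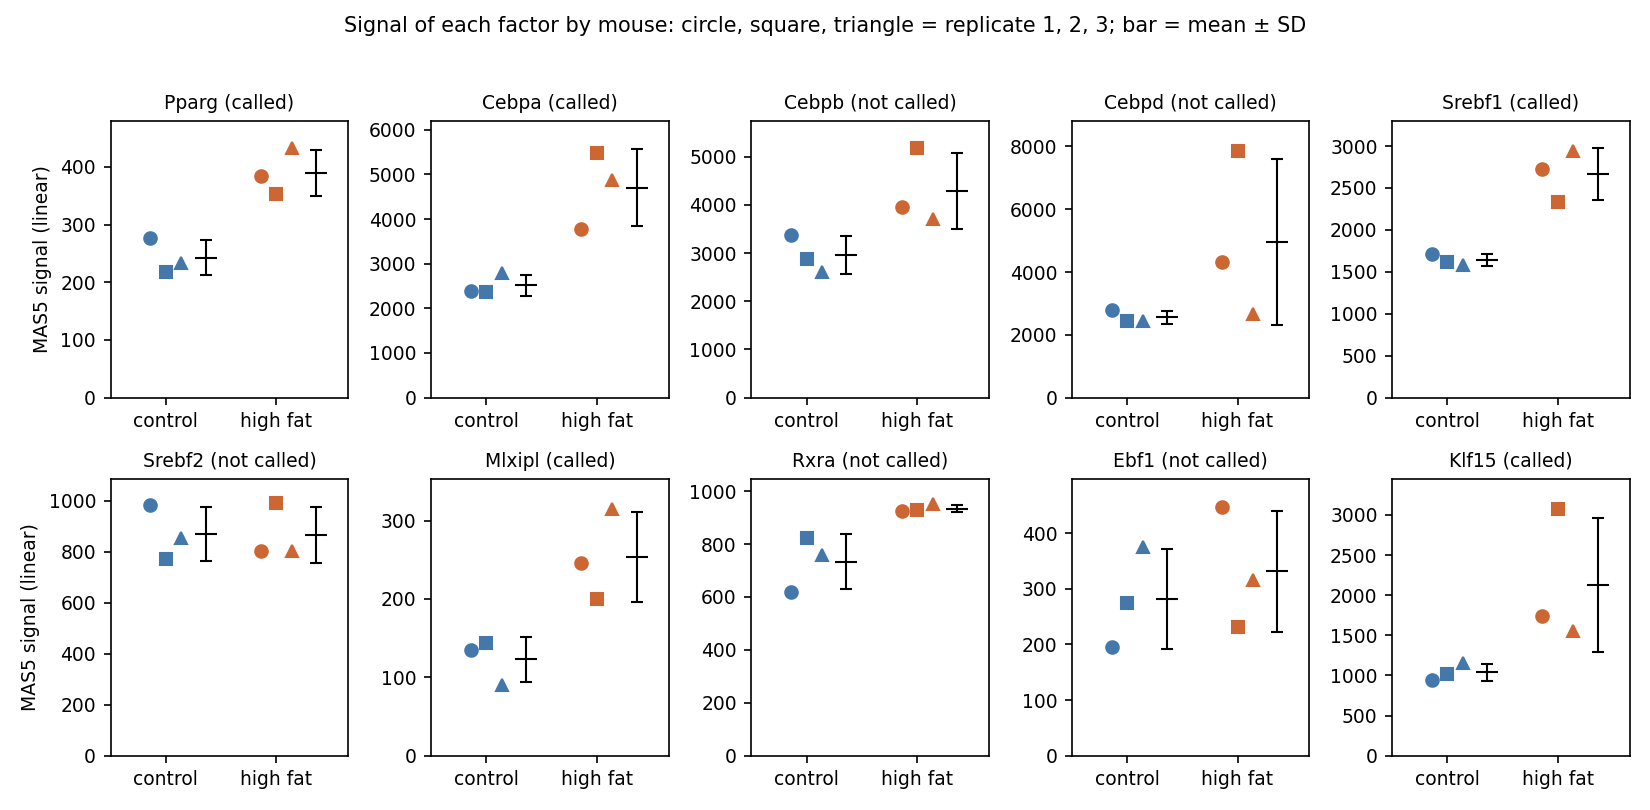
MAS5 signal (linear scale, each vertical axis starting at 0) of the brightest probe set of each of the 10 factors in the 3 control and 3 high fat mice, with symbols for the replicates and the mean ± SD beside them. The groups are apart for Pparg, Cebpa, Cebpb, Srebf1, Mlxipl, Rxra and Klf15 and overlap for Cebpd, Srebf2 and Ebf1, and the spread of the high fat mice is widest for Cebpd, from 2669 to 7868.

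Signals are given in MAS5 units, a linear intensity. In the deposited values the trimmed mean was 500 on every array, so a value is relative to the rest of its array. Because lung tissue with all its cell types was used, more cells of a type and more RNA per cell cannot be told apart. Some measures of the arrays moved with diet. The ratio of 3′ to 5′ control probe sets of Gapdh, a sign of RNA quality, was 0.743 to 0.795 in control and 0.854 to 0.957 in high fat lungs, and that of actin 1.19 to 1.44 and 1.5 to 1.55. Median signals over all probe sets were 143.3 to 150.3 on control and 113.4 to 128.7 on high fat arrays. Of the adipocyte marker list, 6 of 8 genes had a probe set, all 5 tested were called higher, and the summed signal was 2414 to 5651 in control and 22410 to 31600 in high fat mice. The part of any of these in the differences below was not tested.

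The receptor pair of the fat cell program came first. Pparg (chromosome 6) had signals of 276, 218 and 233 in the control mice and 385, 352 and 432 in the high fat mice. All 3 high fat mice were above all controls. The mean went from 242.6 ± 30.01 to 389.9 ± 40.33 (SD, n = 3 each), a rise of 0.69 on the log2 scale (95% interval 0.28 to 1.1) or 1.61-fold (limma adjusted p = 0.0407). The call was a narrow one. Adjusted over genes the limma p was 0.0571, and in none of the 6 fits without 1 mouse was Pparg called (limma adjusted p 0.0592 to 0.124), although the log2 difference stayed between 0.61 and 0.78. Without the replicate 1 mouse of both groups, which had the highest summed skeletal muscle marker signals of their groups (58420 in control and 18080 in high fat, against 583.7 to 3203 and 1240 to 1459 in the other mice), the limma adjusted p was 0.0953. In all, Pparg was called in 7 of 11 other processing alternatives.

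Rxra, the partner through which PPARG binds DNA (chromosome 2), had signals of 619, 823 and 757 in control and 924, 928 and 950 in high fat lungs at its brightest probe set. The groups were apart, and the high fat mice lay close together. The difference of 0.36 on the log2 scale (95% interval 0.04 to 0.68) did not pass the test (limma adjusted p = 0.122), and it was called only with arrays centred on their median (limma adjusted p = 0.0209). A dimmer probe set gave 159, 136 and 207 against 142, 255 and 186, which overlap (limma adjusted p = 0.68). The third probe set lay between 2.98 and 43.9 on all arrays and was not tested.

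Cebpa, the C/EBP factor of the late phase (chromosome 7), had the smallest p of the group. Its signals were 2390, 2371 and 2782 in control and 3776, 5470 and 4872 in high fat lungs. The lowest high fat mouse was above the highest control. The mean went from 2514 ± 232 to 4706 ± 859.4 (SD, n = 3 each), 1.86-fold, or 0.89 on the log2 scale (95% interval 0.55 to 1.24; limma adjusted p = 0.011). The call was kept in all 11 processing alternatives and in 5 of the 6 fits without 1 mouse, the exception being control replicate 2 (limma adjusted p = 0.0514).

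The early C/EBP factors did not pass the test. Cebpb (chromosome 2) had signals of 3381, 2880 and 2608 in control and 3961, 5176 and 3709 in high fat lungs, with the groups apart. The difference was 0.53 on the log2 scale (95% interval 0.17 to 0.88), or 1.44-fold, at a limma adjusted p = 0.0584. It was called in 3 of 11 processing alternatives, namely array weights, median centring and robust eBayes, and in none of the fits without 1 mouse. Its dimmer probe set was higher in all high fat mice too (0.36 on the log2 scale, limma adjusted p = 0.129).

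Cebpd (chromosome 16) varied most among the high fat mice. Its signals were 2783, 2443 and 2443 in control and 4331, 7868 and 2669 in high fat lungs. High fat replicate 3 lay within the control range, so the groups overlap. The log2 difference was 0.82 (95% interval 0.09 to 1.55; limma adjusted p = 0.124), falling to 0.41 without high fat replicate 2 and reaching 1.19 without high fat replicate 3, the only one of the 6 such fits in which it was called (limma adjusted p = 0.0228). The dimmer probe set had signals of 83.5, 33.0 and 111 against 118, 161 and 159 (limma adjusted p = 0.139). Its control mean lay below the filter (6.07 against 6.14 on the log2 scale), so it was tested only through the high fat arrays and its difference is not read here.

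**Figure D2:**
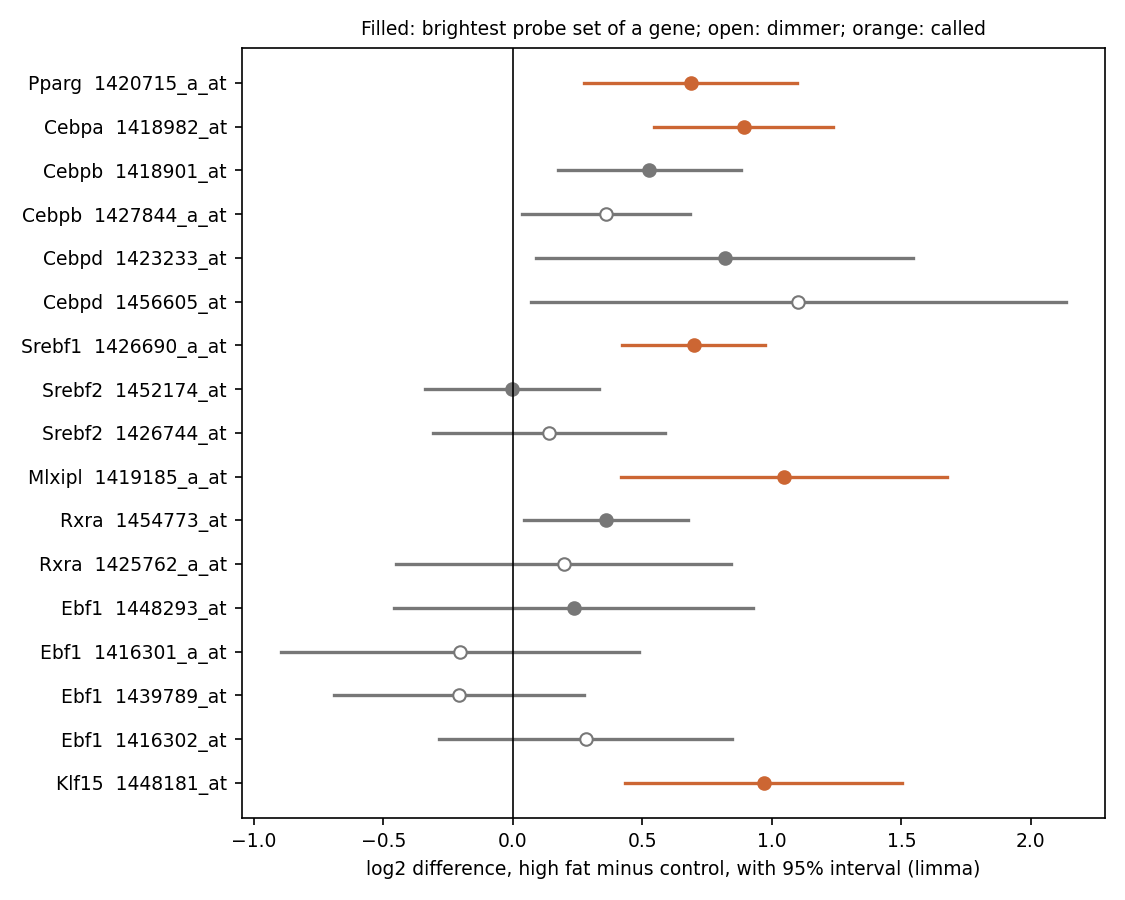
Log2 difference, high fat minus control, of the 17 tested probe sets of the 10 factors (points) with the 95% interval from limma (lines), filled for the brightest probe set of a gene and orange where called. The 5 called probe sets run from 0.69 (Pparg) to 1.05 (Mlxipl), and the brightest probe set of Srebf2 lies at -0.005.

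Among the lipogenic factors, Srebf1 rose and Srebf2 did not pass the test. Srebf1 (chromosome 11) had signals of 1717, 1618 and 1581 in control and 2728, 2333 and 2945 in high fat lungs. The control mice lay close together and all high fat mice were above them. The mean went from 1639 ± 70.53 to 2669 ± 310.2 (SD, n = 3 each), 1.62-fold, or 0.70 on the log2 scale (95% interval 0.42 to 0.97; limma adjusted p = 0.0116). It was called in all 11 processing alternatives and in 4 of 6 fits without 1 mouse, and missed without control replicates 2 and 3 (limma adjusted p = 0.0508 and 0.0571).

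Srebf2 (chromosome 15) had signals of 983, 771 and 855 in control and 802, 992 and 805 in high fat lungs at its brightest probe set. The groups overlap fully. The difference was -0.005 on the log2 scale, with a 95% interval of -0.34 to 0.33 (limma adjusted p = 0.986), so a change of the size seen for Srebf1 lies outside the interval. With arrays centred on their median the difference was 0.27, still not called. The dimmer probe set gave 0.14 (95% interval -0.31 to 0.59; limma adjusted p = 0.67). Whether the Srebf1 and Srebf2 responses differ from each other was not tested.

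Mlxipl, which encodes the glucose-responsive ChREBP (chromosome 5), showed the largest log2 difference among the called factors. Its signals were 135, 143 and 90.4 in control and 245, 200 and 315 in high fat lungs, with the groups apart. The mean went from 122.9 ± 28.5 to 253.5 ± 58 (SD, n = 3 each), 2.07-fold, or 1.05 on the log2 scale (95% interval 0.42 to 1.68; limma adjusted p = 0.0412). The probe set is dim, and with a filter at the 60th percentile it was not tested. Adjusted over genes the limma p was 0.0575, and in none of the 6 fits without 1 mouse was it called (limma adjusted p 0.0574 to 0.127, log2 difference 0.84 to 1.21). It was called in 6 of the 10 processing alternatives that tested it.

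Klf15 (chromosome 6) had signals of 944, 1022 and 1154 in control and 1744, 3080 and 1552 in high fat lungs. All high fat mice were above the controls, and replicate 2 was far above the other two. The mean went from 1040 ± 106.3 to 2126 ± 832.4 (SD, n = 3 each), 1.96-fold, or 0.97 on the log2 scale (95% interval 0.43 to 1.5; limma adjusted p = 0.0321). Without high fat replicate 2 the log2 difference was 0.67 and still called, while leaving out any 1 control ended the call (limma adjusted p 0.0791 to 0.101). It also ended without the intensity trend (limma adjusted p = 0.0696) and without the replicate 1 mice (0.0815).

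Ebf1 (chromosome 11), the factor shared with B cells, had signals of 195, 274 and 375 in control and 447, 232 and 315 in high fat lungs at its brightest probe set, which overlap. The log2 difference was 0.23 (95% interval -0.46 to 0.93; limma adjusted p = 0.641). The other 3 tested probe sets gave -0.20, 0.28 and -0.21, with overlapping groups and none called, and the fifth lay between 3.91 and 49.1 and was not tested. B cell markers fell in the same lungs: 4 of 9 tested were called lower (Ms4a1, Cd22, Fcmr and Fcer2a) and the summed signal of the list went from 5453 to 7853 in control to 1984 to 4209 in high fat mice. The lowest B cell sum of the high fat group was in replicate 2. Among the 4 tested Ebf1 probe sets, the lowest high fat mouse was replicate 2 at the brightest and at 1 dimmer probe set and replicate 1 at the other 2. The part of B cells in the Ebf1 signal was not tested.

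**Figure D3:**
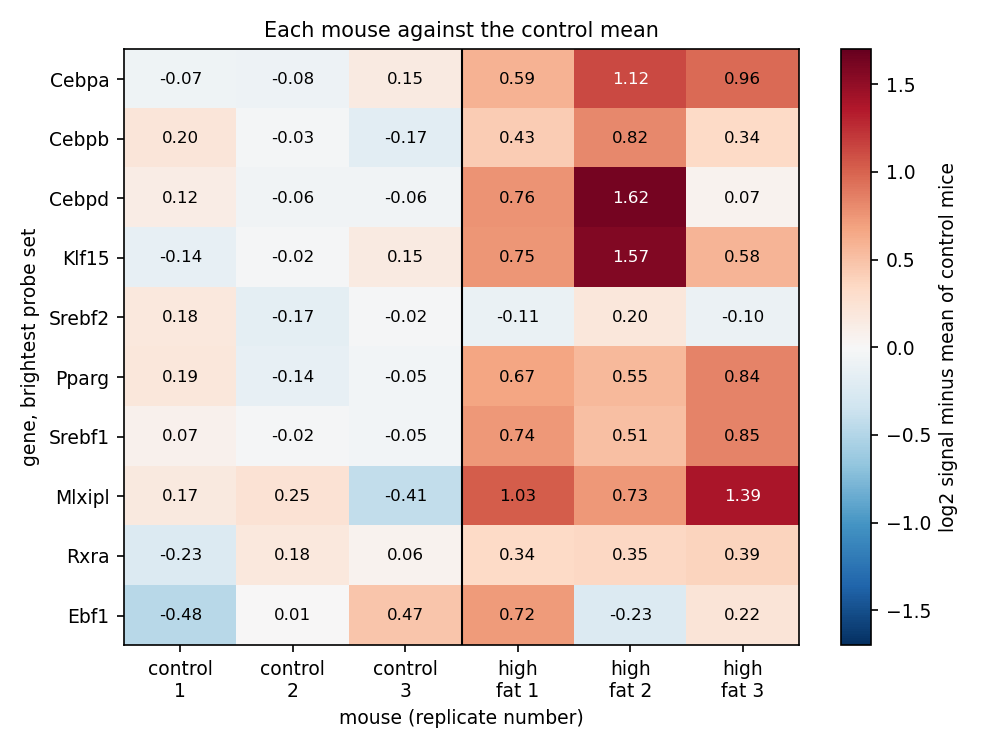
Log2 signal of each factor (rows, brightest probe set) in each of the 6 mice (columns) minus the mean of the control mice, from blue (lower) to red (higher). High fat replicate 2 is the highest of its group for Cebpa, Cebpb, Cebpd, Klf15 and Srebf2, and high fat replicate 3 for Pparg, Srebf1, Mlxipl and Rxra.

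The factors did not peak in the same mouse. At the brightest probe sets, high fat replicate 2 was the highest of the 3 high fat mice for 5 factors. It was the lowest for 4 others (Pparg, Srebf1, Mlxipl and Ebf1). At their brightest probe sets Cebpb, Cebpd and Klf15 shared the order replicate 2, then 1, then 3, which 13.9% of all tested genes have. The dimmer probe set had this order for Cebpb (911, 999 and 808) but not for Cebpd, where it was 2, 3, 1. Of the 12 genes of a list of glucocorticoid-induced genes, 8 had the order 2, 1, 3 as well. Among them were Tsc22d3 (6335, 12843 and 2900 in high fat replicates 1 to 3), which encodes the glucocorticoid-induced leucine zipper, and Zbtb16 (1103, 4102 and 401). Neither was called between the diets (limma adjusted p = 0.815 and 0.696). Of the called genes of this list, Cdkn1a had the order 2, 1, 3, Pdk4 and Mt1 had 1, 2, 3 and Sgk1 had 2, 3, 1. Pparg, Srebf1 and Mlxipl shared the order 3, 1, 2, which 14.9% of all tested genes have. The summed adipocyte markers were highest in replicate 1 (31600, against 22470 and 22410 in replicates 2 and 3). Read at brightest probe sets, Ebf1 alone of the 10 factors peaked in that mouse. At 2 dimmer Ebf1 probe sets replicate 3 was the highest (194, 213 and 396, and 202, 263 and 296, in high fat replicates 1 to 3). At another dimmer one it was replicate 1 (224, 205 and 209). With 3 mice these orders are a description and were not tested.

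Signals of the mice were also compared with those of 12185 other genes by the root mean square distance of log2 profiles over the 6 arrays, each set to a control mean of 0. The closest to Cebpa were Snx22 (0.0823), Pla1a and Rab27a, and the closest to Srebf1 were Eloc (0.0618), Hpn and Ago4. Those closest to Klf15 were Sema5a (0.11), Lrrn4 and Msln, with the last 2 known as mesothelial markers, and those closest to Pparg were Atp9a (0.0258), Mettl1 and Acad10. Likeness of this kind is a description, without a test.

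Genes known as targets of PPARG and CEBPA in fat cells were next. Of 16 tested, 10 were called higher and 0 lower, with a median log2 difference of 1.32 against 0.06 for all tested genes. Mrap, a melanocortin receptor partner, was tested only through its high fat signals (20.5, 26.2 and 70.1 in control and 336, 268 and 339 in high fat lungs), and without it 9 of 15 were called, with a median of 1.26. Fabp4, the fatty acid carrier, had signals of 1559, 1724 and 3510 in control and 19080, 14716 and 15066 in high fat lungs (7.66-fold, limma adjusted p = 0.00218). Adipoq, the adipocyte hormone, rose 9.71-fold, Pck1, the enzyme of glyceroneogenesis, 8.83-fold, and the lipid droplet protein Plin4 4.71-fold (limma adjusted p = 0.00595, 0.00696 and 0.0032). Others did not pass the test: Cd36, which alveolar macrophages and capillaries also express, was at a log2 difference of -0.30 and Lpl at 0.27 (limma adjusted p = 0.213 and 0.51). Dimmer probe sets of Fabp4 and Pck1 were not all called (limma adjusted p = 0.176 and 0.413 for Fabp4, 0.0511 for Pck1). Cd36 and Lpl are named after their values were seen. Several of these genes are also the adipocyte markers given above, so the list is not separate from them.

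**Figure D4:**
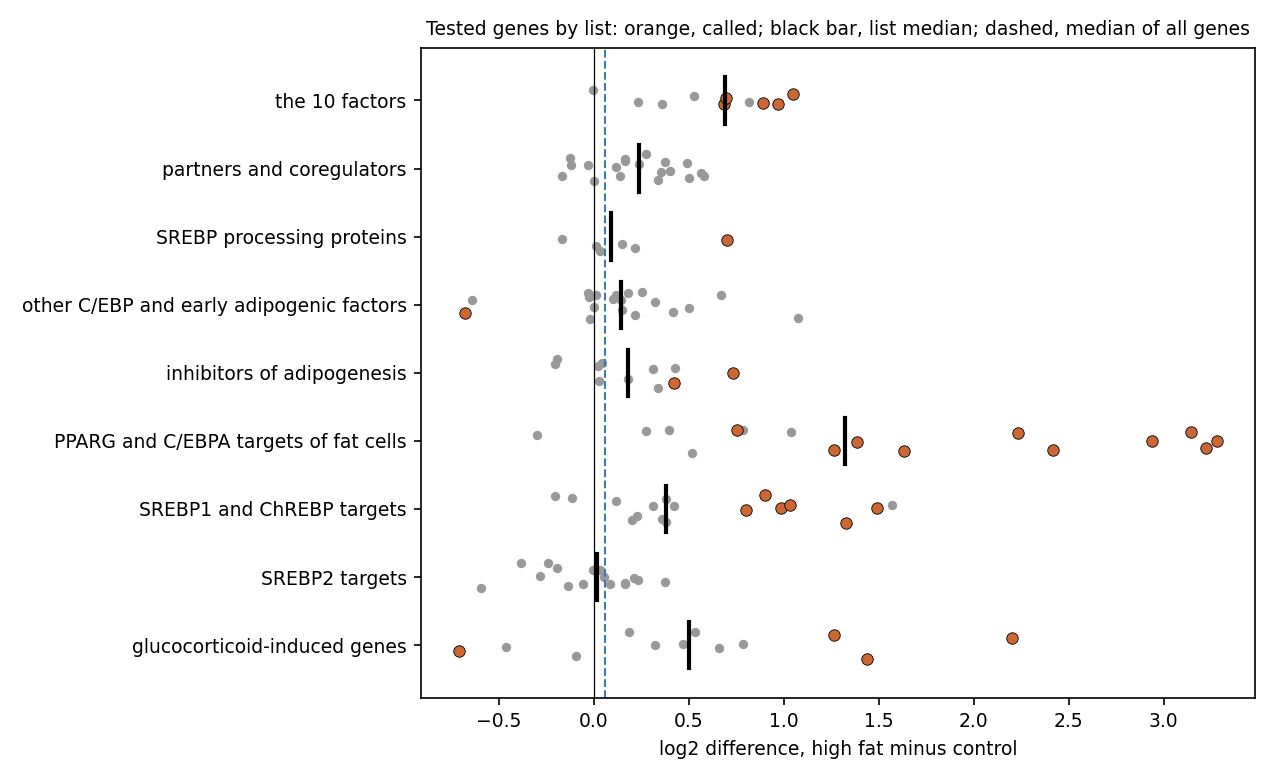
Log2 difference, high fat minus control, of each tested gene (points, orange where called) by list, with the median of the list (black bar) and of all tested genes (dashed, 0.06). Targets of PPARG and C/EBPA have a median of 1.32, targets of SREBP1 and ChREBP 0.38 and targets of SREBP2 0.01.

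Targets of SREBP1 and ChREBP were called higher in 6 of 17 cases and lower in 0, with a median log2 difference of 0.38. The other 11 did not pass the test. In mean 15 of the 17 were higher and 2 lower (Elovl6 at -0.21 and Txnip at -0.11, limma adjusted p = 0.587 and 0.694). Pklr, also on this list, was too dim to test. Scd1, the desaturase that makes monounsaturated fatty acids, had signals of 20381, 19901 and 23280 in control and 43418, 43910 and 42172 in high fat lungs, with little spread in either group (2.04-fold, limma adjusted p = 0.00504). Pnpla3, a lipid droplet acyltransferase and lipase, rose 2.81-fold, the NADPH-producing malic enzyme Me1 2.51-fold, the acetyl-CoA carboxylase Acacb 1.98-fold and the acetyl-CoA synthetase Acss2 1.74-fold (limma adjusted p = 0.0073, 0.0104, 0.00938 and 0.00856). At a dimmer probe set Acss2 was not called (log2 difference 0.62, limma adjusted p = 0.0673), nor was Me1 (0.46, limma adjusted p = 0.315). Among the SREBP2 targets of cholesterol synthesis, 0 of 16 were called by limma and the median was 0.01. At an unadjusted limma p under 0.05, 0 were higher and 2 lower. These were Fdps and Sc5d, at log2 differences of -0.59 and -0.38 (limma adjusted p = 0.071 and 0.0947).

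Of 6 proteins that hold, cleave or otherwise regulate SREBPs, Insig1 was the 1 called. It retains the SCAP-SREBP complex in the endoplasmic reticulum and is itself an SREBP target. Its signals were 739, 782 and 543 in control and 1050, 1162 and 1101 in high fat lungs, with the groups apart (1.62-fold, limma adjusted p = 0.0262), and it was called in 1 of 6 fits without 1 mouse. The median of the 6 was 0.09. Of 19 partners and coregulators of the factors, 0 were called by limma, with a median of 0.24, and 4 were higher at an unadjusted p under 0.05. With arrays centred on their median, the called genes numbered 5 of these 19, 13 of the 17 targets of SREBP1 and ChREBP and 1 of the 16 SREBP2 targets. Under this centring 2946 of all 12689 tested genes were called, 95.6% of them higher. Without centring, the partners and coregulators smallest in p were the acetyltransferases Ep300 and Ncoa3, at log2 differences of 0.49 and 0.58 (limma adjusted p = 0.0615 and 0.0714). Another probe set of Ncoa3 was at -0.38 (limma adjusted p = 0.219).

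Of 11 tested inhibitors of fat cell formation, 2 were called higher. Nr2f2 (COUP-TFII) had signals of 1616, 2005 and 1700 in control and 2757, 3109 and 2952 in high fat lungs (1.66-fold, limma adjusted p = 0.00995). Among its other tested probe sets 1 was called lower (-0.96 on the log2 scale, limma adjusted p = 0.0349). The rest were higher and not called (0.49, 0.77 and 0.35, limma adjusted p = 0.127, 0.0799 and 0.185). Smad3, which carries TGF-beta signals, rose 1.34-fold (limma adjusted p = 0.0375), but was called neither in any of the 6 fits without 1 mouse nor when adjusted over genes (limma adjusted p = 0.0528). Its other tested probe set went the other way (-0.71 on the log2 scale, limma adjusted p = 0.0932). Of 19 other C/EBP and early factors, 1 was called: Nr3c1, the glucocorticoid receptor, fell from 4504, 5919 and 5728 to 2647, 3759 and 3747, or by 0.68 on the log2 scale (limma adjusted p = 0.0353). Of its other 4 tested probe sets, 2 were called lower too (limma adjusted p = 0.0381 and 0.0385) and 2 were not. Nr3c1 was called in 2 of 6 fits without 1 mouse (highest limma adjusted p = 0.12, without control replicate 3), and the list had 0 calls without control replicate 2 or 3 or high fat replicate 1 or 2 and with no intensity trend.

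Glucocorticoid-induced genes, listed because Klf15, Cebpd and Cebpb are among the genes this hormone class is known to raise, went in both directions. Of 12 tested, 3 were called higher (Pdk4 4.6-fold, the metallothionein Mt1 2.41-fold and the cell cycle inhibitor Cdkn1a 2.71-fold; limma adjusted p = 0.00622, 0.00975 and 0.0363) and 1 lower (Sgk1, a kinase, at 0.612 times the control level; limma adjusted p = 0.0448). Adjusted over genes, Cdkn1a and Sgk1 were not called (limma adjusted p = 0.0512 and 0.062). The 4 calls became 2 without control replicate 2, control replicate 3 or high fat replicate 1, and 2 with no intensity trend. The median was 0.50, and it fell to 0.08 without high fat replicate 2. Pdk4 and Angptl4 of this list are known PPAR targets too.

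Markers of the lung cells in which some factors are normally found were set beside these results. The sum of 8 alveolar type II cell markers was 148600 to 227800 in control and 195500 to 220000 in high fat lungs. By limma 0 of these 8 were called in either direction, and 2 were higher at an unadjusted p under 0.05. In mean 7 of the 8 were higher and 1 lower. In 4 of them every high fat mouse was above every control mouse, which was so for 19.7% of all tested genes. Their median log2 difference was 0.23, against 0.06 for all tested genes. Of 8 tested alveolar macrophage markers, 4 were called lower (Siglecf, Krt79, Atp6v0d2 and Itgax) and 0 higher. Their sums were 16850 to 20710 in control and 7777 to 20790 in high fat lungs. Chil3, Fabp1 and Mrc1 were not called, at log2 differences of -0.57, -0.56 and -0.35, nor was Marco, at 0.26. All 5 tested neutrophil and monocyte markers were lower in mean and 3 were called, with sums of 5569 to 15850 in control and 2465 to 4300 in high fat lungs. A dimmer probe set of Ccr2, from this list, was called lower (-0.89 on the log2 scale, limma adjusted p = 0.0421). Its brightest and remaining probe sets were not called. By limma, 0 were called among 6 alveolar type I, 5 club cell, 7 fibroblast and 7 skeletal muscle markers, of which 1, 0, 0 and 0 had an unadjusted p under 0.05. This reads each gene at its brightest probe set, and some dimmer ones were called lower: 2 of Clic5 (-2.1 and -0.71 on the log2 scale, limma adjusted p = 0.00415 and 0.0152) and 1 of Hopx (-0.51, limma adjusted p = 0.0377), both type I markers, and 1 of the fibroblast marker Macf1 (-0.51, limma adjusted p = 0.0398). In the remaining lists 2 of 7 endothelial markers were called lower (Pecam1 and Emcn). Of 8 cardiac markers 1 was called higher (Myl7), and all 8 were higher in mean, 4 at an unadjusted limma p under 0.05. Cardiac sums were 20870 to 47520 in control and 44340 to 162600 in high fat lungs. Of 4 tested brown fat markers, 2 were called higher (Cidea and Cox8b). Ucp1, tested only through its high fat signals, and Ppargc1a, at a log2 difference of 0.12, were not called. Cidea overlapped between the groups, was called in 2 of 6 fits without 1 mouse and was not called when adjusted over genes (limma adjusted p = 0.0601). Siglecf and Mmp8, a neutrophil marker, had high fat means below the filter and were tested through their control signals; without them 3 of 7 macrophage and 2 of 4 neutrophil and monocyte markers were called lower. Of all these lists, 1 gene (Elane) was below the filter on every array. The part of these cells in the factors' signals was not tested.

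**Figure D5:**
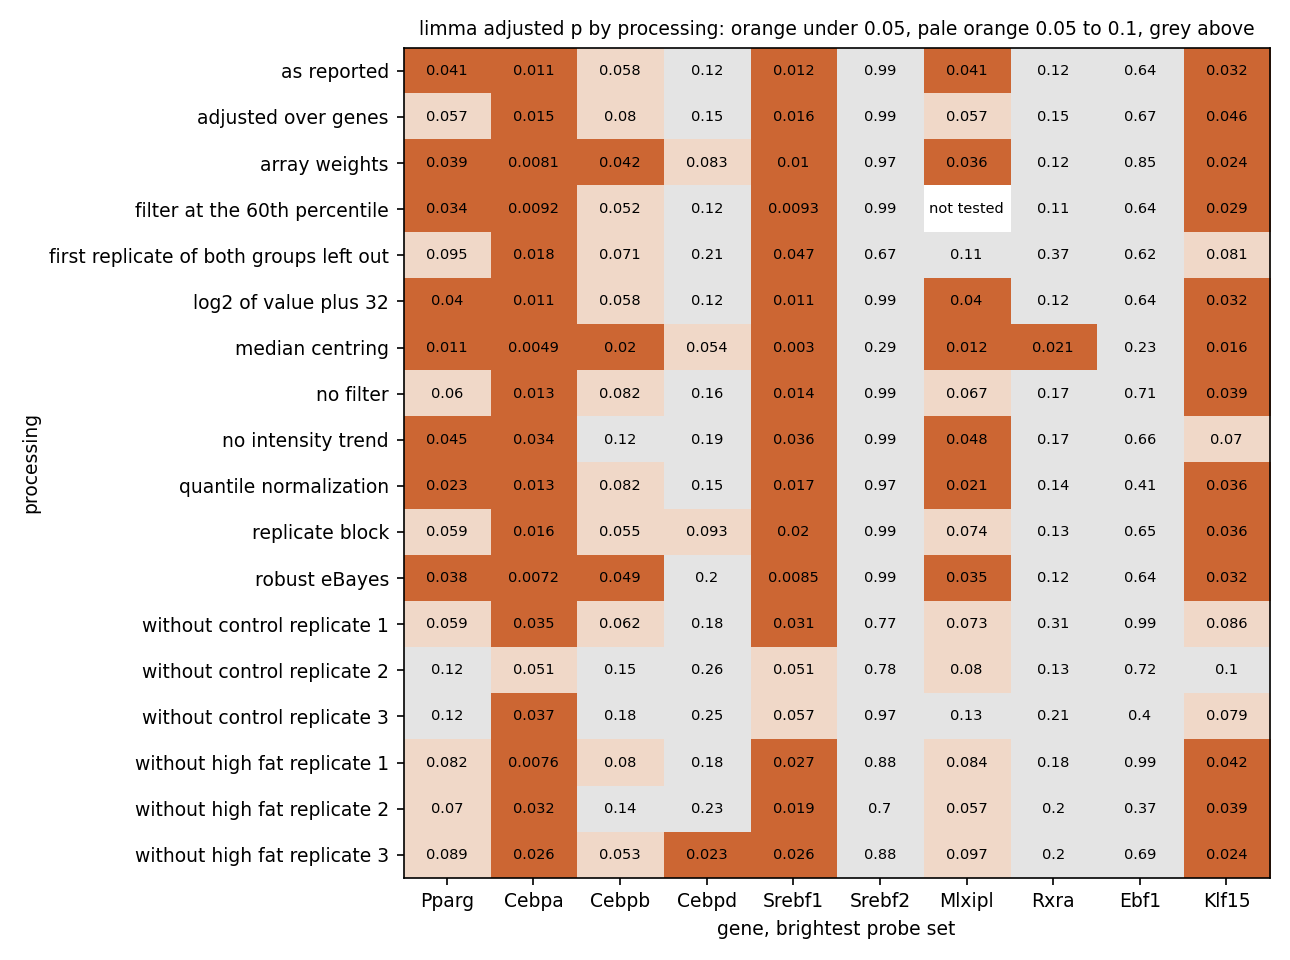
Benjamini-Hochberg adjusted p from limma for the brightest probe set of each factor (columns) under the reported processing and 17 alternatives (rows), orange under 0.05, pale orange from 0.05 to 0.1 and grey above. Cebpa and Srebf1 are under 0.05 in every row except those without control replicate 2 (both) and without control replicate 3 (Srebf1), and Srebf2 and Ebf1 are above 0.1 in every row.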

How the data were processed

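Transcript levels were measured in 6 lungs. The deposited intensity values came from MAS5, per the submitters' processing notes, with version and settings not given in the sources used here. A trimmed mean of 500 on every array was found from the deposited values. Dim probe sets are noisy because MAS5 takes mismatch signal away, and 3 arrays per group limit the precision. The labels do not say how the numbered replicates were housed or processed, and no batch could be tested. Numbers in the sample titles are all lower for control than for high fat mice, and what they stand for is unknown, so anything that follows them cannot be told apart from diet.

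The deposited intensities, floored at 1, were put on the log2 scale with no further normalization. Probe sets with a mean log2 signal at or above the 40th percentile of non-control probe sets (6.14, a signal of 70.3) were tested with limma 3.58.1 in R 4.3.3 (lmFit, eBayes with intensity trend, two-sided, diet as the only term, and 4 residual degrees of freedom). P-values were adjusted by Benjamini-Hochberg over the 27022 tested probe sets, and a call is an adjusted p under 0.05. A gene's value is read at its brightest probe set, counting those that name no other gene. Means and SDs are of linear signals. The code of the fit was also run on simulated arrays with independent noise and planted differences, which does not test the calls reported here.

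Alternatives were quantile normalization, median centring, log2 of the value plus 32, no filter, a filter at the 60th percentile, no intensity trend, robust eBayes, array weights, a replicate block, adjustment over genes, leaving out each mouse, and leaving out both replicate 1 mice. Named genes are all 10 factors, up to 5 called genes by smallest p from each pathway list and up to 2 where none was called, the called and brightest cell type markers, and the 3 nearest profiles of up to 4 called factors. Tsc22d3, Zbtb16, Angptl4, Cd36, Lpl, Elovl6, Txnip, Pklr, Marco, Fabp1, Ucp1 and Elane fall outside this rule and were named after their values were seen. The members and the lists were chosen with earlier results of these data known. Symbols came from the platform annotation, and chromosomes and promoter sequences from RefSeq (GRCm38.p6).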

Additional observations from a re-analysis of the deposited data

How the results depend on the processing

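The number of called factors was 5 as reported, over probe sets and over genes. By either count it was 3 under the replicate block and 3 without a filter, 3 genes when adjusted over genes, and 2 without the replicate 1 mice; with median centring 8 probe sets were called. Without 1 mouse the counts ran from 0 to 4. Factors named as called kept a positive difference in every alternative. The brightest Srebf2 probe set turned to 0.0119 with array weights, 0.14 without the replicate 1 mice and 0.27 with median centring, and ran from -0.106 to 0.087 without 1 mouse. Ebf1 at its brightest probe set was -0.25 without the replicate 1 mice and ran from -0.0071 to 0.468 without 1 mouse. With median centring, 2 of its dimmer probe sets, at -0.204 and -0.208 as reported, became 0.0706 and 0.0666. Without 1 mouse the dimmer probe sets of Srebf2 and Rxra ran from -0.0803 to 0.322 and from -0.0202 to 0.403. The causes were not tested. Median centring moved the median log2 difference of all tested probe sets from -0.06 to 0.22, and quantile normalization to 0.01. The share of called probe sets that were higher was 35.9%, 80.1% and 44.7% under these scalings, and 66.9%, 95.6% and 69.6% for genes, for which calls numbered 1189, 2946 and 1235. Calls over all tested genes fell to 303 without control replicate 2 and to 270 without control replicate 3. Deviations of same-numbered mice correlated at 0.167, 0.108 and -0.0413. No test was run on these values, so whether the numbers pair the mice is unknown. Under the replicate block Pparg and Mlxipl were not called (limma adjusted p = 0.0593 and 0.0744), and no other factor's call changed. Dim probe sets, such as that of Mlxipl and the untested ones of Rxra and Ebf1, limit what can be read at low signal.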
